A study of Mus with 96 samples.

Results

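The growth hormone and IGF axis of the mouse liver was followed through 10 genes chosen by name: the receptor gene Ghr, the signal transducer Stat5b, the feedback inhibitors Socs2 and Cish, the secreted products Igf1 and Igfals, and the IGF binding proteins Igfbp1, Igfbp2, Igfbp3, and Igfbp4. Each name matched 1 of the 55487 genes of the count table. All 10 passed the filter on low counts, a sum of at least 100 reads over the 96 libraries, and their sums ran from 15202 reads for Igfbp3 to 783281 reads for Igfbp4. Liver RNA of 96 male and female C57BL/6J mice was measured by BRB-seq, which reads the 3′ end of each mRNA, with 1 mouse per library. All mice carried floxed Bmal1 alleles (Bmal1 flx/flx), were 8 to 10 weeks old, and lived under 12 hours of light and 12 hours of dark. Hep-Bmal1KO mice also carried Alb-Cre, in which the albumin promoter drives Cre and which the study used to delete Bmal1 in hepatocytes. Their Hep-Bmal1WT littermates carried no Cre. Whether all other liver cells kept Bmal1 was not tested. Mice of both genotypes were fed for 2 weeks with normal chow (NC) or with a choline-deficient high-fat diet (cdHFD). The study used cdHFD to induce steatohepatitis. This diet held 60% fat against 14% in NC, 9% protein against 27%, and 31% carbohydrate against 59%, with 2% cholesterol and 0.17% methionine. There were 24 mice per genotype and diet, 4 at each of ZT 2, 6, 10, 14, 18, and 22 (hours after lights on), of which 2 were male and 2 female, except that Hep-Bmal1WT livers on cdHFD at ZT 14 came from 3 males and 1 female.

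Growth hormone from the pituitary binds GHR on hepatocytes, and the kinase JAK2 on the receptor then phosphorylates STAT5B, which enters the nucleus and induces target genes. These include Igf1 and Igfals, which supply circulating IGF1 and the acid-labile subunit that holds it in a complex with IGFBP3, and Socs2 and Cish, whose products damp the signal of the receptor. In rodents growth hormone is secreted in pulses in males and more steadily in females, and this difference sets the level of many sex-biased liver genes.

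Reads counted on genes numbered between 1861740 and 9718615 per library, with a median of 6412078, and the values below are CPM, the reads of a gene relative to all reads counted on genes in its library, after TMM scaling. Y-linked genes matched the sex label in 96 of 96 libraries. In 7 libraries, both the clock genes and 20 other genotype-dependent genes lay nearer the other genotype than the label. These were replicate 2 at ZT 6 and replicate 4 at ZT 18 of Hep-Bmal1WT on NC, replicate 3 at ZT 10 and replicate 1 at ZT 14 of Hep-Bmal1WT on cdHFD, replicate 4 at ZT 6 and replicate 3 at ZT 10 of Hep-Bmal1KO on NC, and replicate 1 at ZT 14 of Hep-Bmal1KO on cdHFD. They were kept under their labels, and for the 10 genes the genotype differences that passed over all libraries are also given without them. The 7 were chosen for lying nearer the other genotype, so leaving them out favours larger genotype differences. Over all genes, calls by genotype went from 1960 to 2656 on NC and from 1494 to 2024 on cdHFD without them. Calls gained without the 7 libraries are therefore no independent evidence of a genotype difference. Bmal1 (Arntl) was read at its 3′ end, which recombination of floxed exons need not remove, so its level is no direct check of the deletion. Averaged over the day its log2 difference in Hep-Bmal1KO livers was 0.02 on NC and -0.50 on cdHFD, neither passing, whereas at single times the group means lay apart in both directions. On NC they were 20.2 ± 4.65 CPM (SD, n = 4) in Hep-Bmal1WT and 9.83 ± 2.55 in Hep-Bmal1KO livers at ZT 2, and 0.748 ± 0.463 and 5.77 ± 3.81 at ZT 10. The labels name each library by a letter and a number, and all libraries with the same number shared a genotype and a diet, so an effect that went with that number and one of genotype or diet cannot be told apart.

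On cdHFD the axis was lower at the receptor, in its feedback genes, and in its main secreted products, while the genes of 2 binding proteins were higher, in both genotypes. In Hep-Bmal1WT livers 7 of the 10 genes fell and 2 rose between NC and cdHFD at an adjusted p under 0.05 (edgeR's quasi-likelihood test, Benjamini-Hochberg over 15548 genes), where 27.0% of all genes tested fell and 28.7% rose. In Hep-Bmal1KO livers 7 fell and 3 rose, against 29.6% and 32.4% of all genes. The median log2 change of the 10 genes was -0.74 in Hep-Bmal1WT and -0.76 in Hep-Bmal1KO livers, and that of all genes was 0.01 and 0.02. For 3 of the 10 genes, Ghr, Igf1, and Igfals, no library on cdHFD reached the range of the NC libraries in either genotype, which held for 3.74% of all genes in Hep-Bmal1WT and for 5.74% in Hep-Bmal1KO livers. Both comparisons of diet are within a genotype, so they share no libraries. The TMM factors of Hep-Bmal1WT libraries ran from 0.77 to 0.91 on NC and from 1.09 to 1.27 on cdHFD. This scaling lowers cdHFD values against NC values, so changes as small as those of Igfbp4 and Stat5b in this genotype depend on it. With DESeq2 size factors in place of TMM, 9 genes passed in Hep-Bmal1WT and 10 in Hep-Bmal1KO livers.

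**Figure D1:**
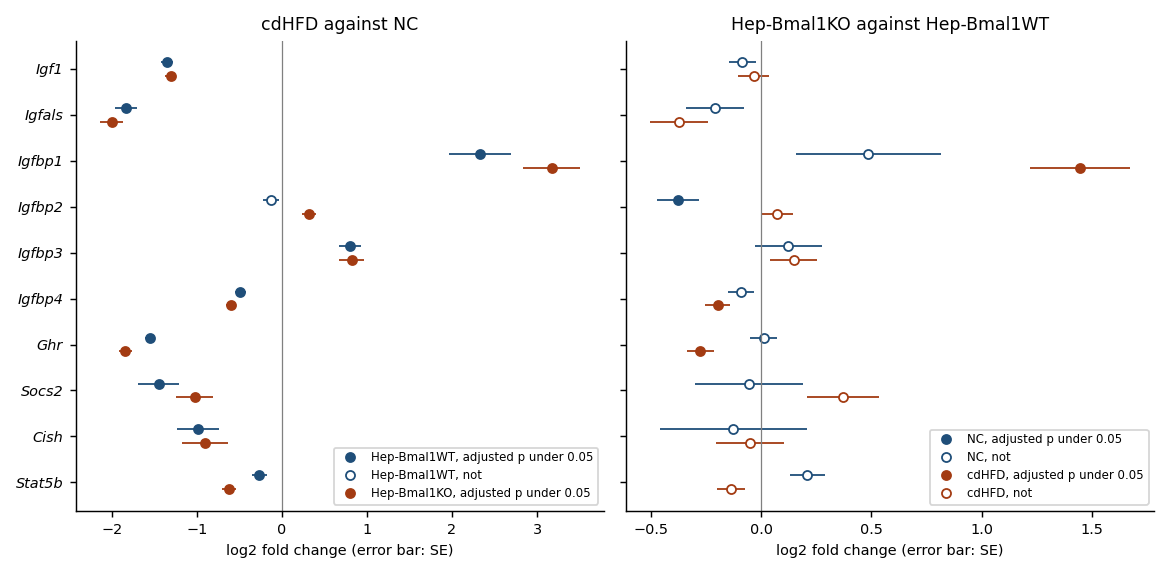
Log2 fold change and SE (x axis) of each gene (y axis) for cdHFD against NC in both genotypes (left) and for Hep-Bmal1KO against Hep-Bmal1WT on both diets (right), with filled points where the adjusted p was under 0.05. In all, 7 genes lie left of 0 for diet in both genotypes with filled points, and Igfbp1 is the farthest to the right in both panels.

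The diet also moved the markers of the liver's cell types. All 6 hepatocyte markers (Alb, Ttr, Apoa1, Cps1, Hnf4a, and Tat) fell in both genotypes, and their summed CPM had a median of 145130 in Hep-Bmal1WT livers on NC (range 85228 to 198906) and 71233 on cdHFD (51156 to 87910). In Hep-Bmal1KO livers the medians were 94314 on NC (70738 to 202413) and 59933 on cdHFD (46059 to 81282). All 7 macrophage markers rose in both genotypes, from a summed median of 234 (121 to 295) to 842 (489 to 1258) in Hep-Bmal1WT and from 214 (99.6 to 325) to 769 (578 to 1184) in Hep-Bmal1KO livers. Of 8 stellate cell markers 7 rose in Hep-Bmal1WT and 8 in Hep-Bmal1KO livers, with summed medians of 294 and 308 on NC and of 678 and 832 on cdHFD. Of 6 endothelial markers 4 rose and 1, Kdr, fell in each genotype, with summed medians of 148 and 145 on NC and of 178 and 160.0 on cdHFD. Of 5 leukocyte markers 4 rose in Hep-Bmal1WT and 3 in Hep-Bmal1KO livers, and of 4 cholangiocyte markers 1 and 2 rose. None of these 36 markers had a median of 0. In bulk liver RNA, fewer hepatocytes and less RNA per hepatocyte cannot be told apart, and the part of cell composition in the changes of the axis was not tested.

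Ghr, the growth hormone receptor (chromosome 15, 3317755 to 3583352, GRCm38.p6), had the smallest p for diet among the 10 genes in both genotypes. Its CPM ran from 218 to 350.1 with a median of 280.5 in Hep-Bmal1WT livers on NC and from 75.9 to 114 with a median of 95.7 on cdHFD. In Hep-Bmal1KO livers it ran from 207 to 359.8 (median 279) on NC and from 46.8 to 137 (median 79.3) on cdHFD. Every cdHFD library thus lay below every NC library, and the highest cdHFD value, 137, came from 1 of the 7 libraries named above. The log2 change with diet was -1.55 (SE 0.05; 2.93-fold lower) in Hep-Bmal1WT and -1.84 (SE 0.08; 3.58-fold lower) in Hep-Bmal1KO livers. On NC the genotypes had a log2 difference of 0.01 (SE 0.06) that did not pass, whereas on cdHFD Ghr was lower in Hep-Bmal1KO livers by a log2 value of -0.28 (SE 0.06; edgeR, adjusted p = 0.0022). Without the 7 libraries that difference was -0.32, and without replicate 2 of each group its adjusted p in edgeR's test was 0.051, as it was 0.093 in females alone. Whether the genotype difference depended on diet did not pass in all libraries (-0.29, edgeR adjusted p = 0.054) and passed without the 7 (-0.34, edgeR adjusted p = 0.0080).

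Stat5b, the transcription factor that carries the receptor's signal to the nucleus (chromosome 11, 100780731 to 100859004), moved less. Its CPM ran from 20.7 to 64.1 (median 34.9) in Hep-Bmal1WT livers on NC, from 17.9 to 39.8 (median 28.8) on cdHFD, from 26.7 to 62.3 (median 40.2) in Hep-Bmal1KO livers on NC, and from 17.2 to 31.9 (median 26.4) on cdHFD. The ranges overlapped in every comparison, and the lowest median was that of Hep-Bmal1KO livers on cdHFD. The log2 change with diet was -0.27 (SE 0.09) in Hep-Bmal1WT and -0.62 (SE 0.08) in Hep-Bmal1KO livers, and the test of the difference between these passed (-0.35, edgeR adjusted p = 0.046; -0.39 without the 7 libraries), though not without replicate 1, 2, or 3 of each group or in either sex alone. The change in Hep-Bmal1WT livers was -0.20 without the 7 libraries and no longer passed (edgeR, adjusted p = 0.057), nor did it pass in males alone (-0.15) or without replicate 3 (-0.25) or 4 (-0.18) of each group. On NC the gene was 0.21 (SE 0.08) log2 units higher in Hep-Bmal1KO livers, which did not pass (edgeR, adjusted p = 0.077) and which was 0.26 without the 7 libraries (edgeR, adjusted p = 0.017).

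Socs2 and Cish, which encode cytokine-inducible inhibitors of growth hormone signalling, varied widely between mice on NC. Socs2 (chromosome 10, 95383903 to 95417321) ran from 3.68 to 142 CPM (median 54.9) in Hep-Bmal1WT livers on NC and from 8.72 to 84.1 (median 18.2) on cdHFD. In Hep-Bmal1KO livers Socs2 ran from 4.56 to 129 (median 57.3) and from 9.49 to 70.8 (median 24.6). The lowest values of both genotypes were thus on NC although the medians there were higher. Cish (chromosome 9, 107296659 to 107302784) had medians of 30.7 and 18.2 CPM on NC and cdHFD in Hep-Bmal1WT livers and of 32 and 18.4 in Hep-Bmal1KO livers, and its values ran from 2.32 to 101 on NC and from 6.10 to 38.9 on cdHFD over both genotypes. Socs2 fell with diet by 1.45 (SE 0.24) log2 units in Hep-Bmal1WT and by 1.02 (SE 0.22) in Hep-Bmal1KO livers. Cish fell by 0.99 (SE 0.24) and by 0.91 (SE 0.27). Over males alone Cish had changes of -0.58 and -0.79 that did not pass in edgeR's test (adjusted p = 0.19 and 0.14), and so had Socs2 in Hep-Bmal1KO males (-0.61, edgeR adjusted p = 0.10). Neither gene differed between genotypes at the threshold on either diet. In males on cdHFD alone, Socs2 was 0.71 log2 units higher in Hep-Bmal1KO livers (edgeR, adjusted p = 0.020), with 0.11 in females, and the sex by genotype test over all libraries did not pass for it (0.60, edgeR adjusted p = 0.51).

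Igf1, the growth factor itself (chromosome 10, 87858265 to 87937047), fell with diet in both genotypes. Its CPM ran from 845 to 1631 (median 1161) in Hep-Bmal1WT livers on NC, from 332 to 643 (median 448) on cdHFD, from 856 to 1413 (median 1067) in Hep-Bmal1KO livers on NC, and from 305 to 694 (median 419) on cdHFD. Libraries of the diets did not overlap, and those of the genotypes on the same diet overlapped. The log2 changes with diet were -1.36 (SE 0.07; 2.56-fold lower) and -1.31 (SE 0.07; 2.48-fold lower), and their difference was 0.05 (SE 0.10), which did not pass. Igfals, the acid-labile subunit (chromosome 17, 24877844 to 24882011), fell further. It ran from 66.3 to 246 CPM (median 118) on NC and from 23.1 to 64.8 (median 33.1) on cdHFD in Hep-Bmal1WT livers, and from 65.6 to 192 (median 110.1) and from 12.6 to 48.6 (median 26.1) in Hep-Bmal1KO livers. Its log2 changes were -1.83 (SE 0.13; 3.57-fold lower) and -2.0 (SE 0.14; 4.01-fold lower), again with no overlap between diets. On cdHFD Igfals had a log2 difference of -0.37 (SE 0.13) in Hep-Bmal1KO livers that did not pass (edgeR, adjusted p = 0.061) and was -0.43 without the 7 libraries (edgeR, adjusted p = 0.021).

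**Figure D2:**
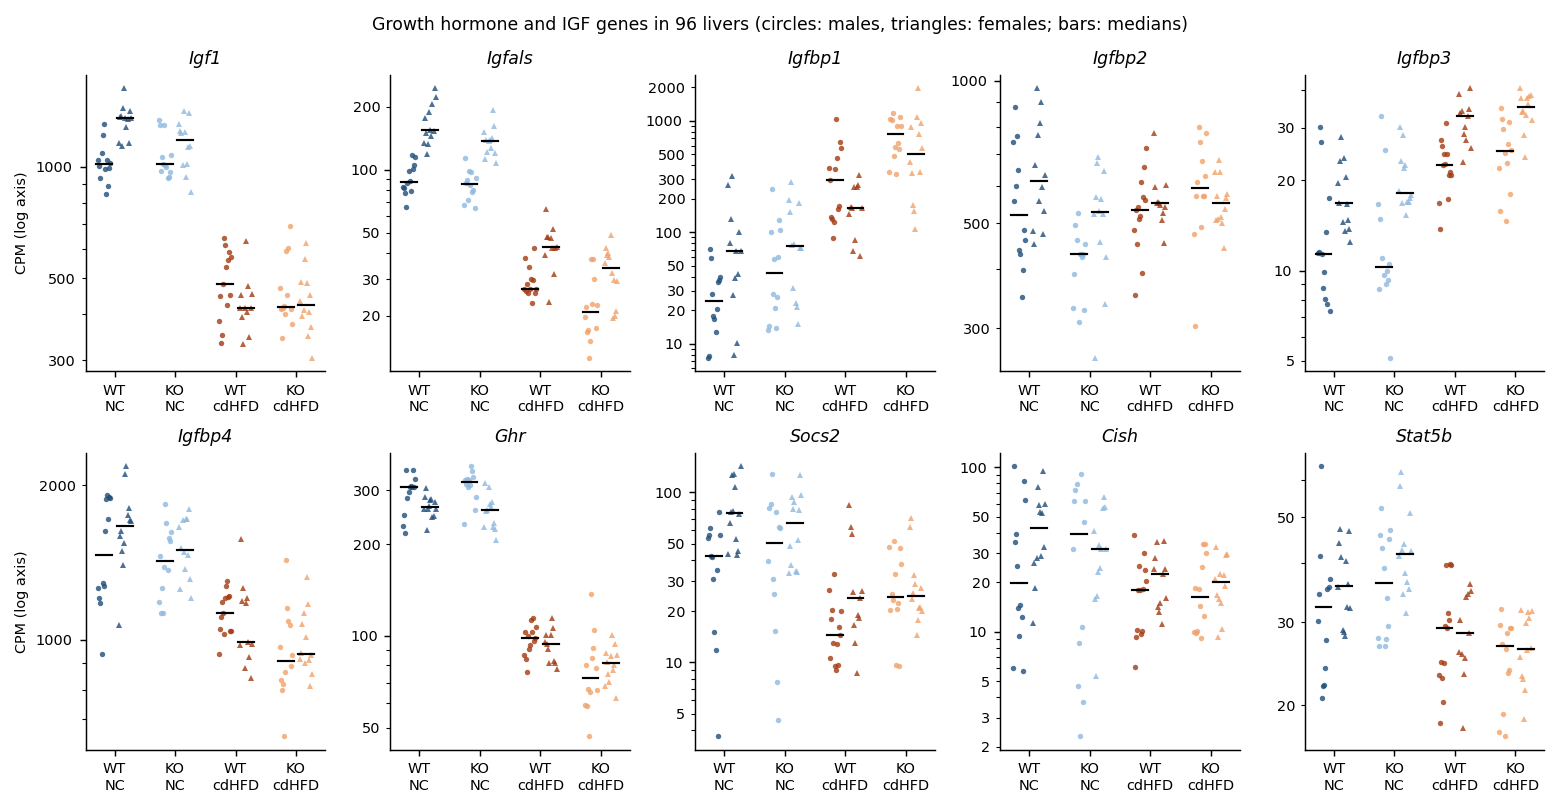
CPM on a log axis (y) of each of the 10 genes in 96 livers, by genotype and diet (x), with circles for males, triangles for females, and bars for the medians of each sex. Ghr, Igf1, and Igfals separate by diet without overlap, and Igfbp1 is highest in Hep-Bmal1KO livers on cdHFD, with medians of 762 CPM in males and 503 in females.

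The binding proteins did not move as a group. Igfbp1, known as an acutely regulated binding protein that insulin represses (chromosome 11, 7197787 to 7202546), had median CPM values of 38 (7.47 to 318) in Hep-Bmal1WT livers on NC, 66.1 (13.2 to 282) in Hep-Bmal1KO livers on NC, 171 (61.8 to 1032) in Hep-Bmal1WT livers on cdHFD, and 604 (108 to 1976) in Hep-Bmal1KO livers on cdHFD. The medians rose in this order, and the ranges of all 4 groups overlapped. The log2 change with diet was 2.32 (SE 0.37; 5.01-fold higher) in Hep-Bmal1WT and 3.17 (SE 0.33; 9.02-fold higher) in Hep-Bmal1KO livers. On cdHFD Igfbp1 was 2.72-fold higher in Hep-Bmal1KO livers (log2 1.45, SE 0.23; edgeR, adjusted p = 1.7e-05), with 1.57 without the 7 libraries, 1.45 in males alone, and 1.46 in females alone. On NC the difference was 0.49 (SE 0.33) and did not pass, although it passed in males alone (1.0, edgeR adjusted p = 0.00019) and not in females (0.26). The test of genotype by diet did not pass for Igfbp1 (0.97, SE 0.41; edgeR, adjusted p = 0.20).

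Igfbp3, the main carrier of circulating IGF1, lies 3539 bases from the end of Igfbp1 (chromosome 11, 7206086 to 7215498) and also rose with diet. Its median CPM was 14.1 (7.35 to 30.2) and 25.9 (13.8 to 40.6) on NC and cdHFD in Hep-Bmal1WT livers, and 16.8 (5.11 to 32.8) and 31.6 (14.6 to 40.5) in Hep-Bmal1KO livers. These are log2 changes of 0.80 (SE 0.13; 1.74-fold) and 0.82 (SE 0.14; 1.76-fold), with overlapping ranges. It had no genotype difference that passed on either diet (0.12 on NC and 0.15 on cdHFD).

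Igfbp4, which binds IGF1 and limits its action (chromosome 11, 99040005 to 99052655), fell with diet by 0.49 (SE 0.07) log2 units in Hep-Bmal1WT and by 0.60 (SE 0.05) in Hep-Bmal1KO livers. Its medians were 1632 CPM (938 to 2178) and 1473 (1126 to 1840) on NC in Hep-Bmal1WT and Hep-Bmal1KO livers, and 1118 (842 to 1575) and 934 (649 to 1432) on cdHFD. On cdHFD it was lower in Hep-Bmal1KO livers by a log2 value of -0.20 (SE 0.06; edgeR, adjusted p = 0.016), and -0.22 without the 7 libraries, but it did not pass without replicate 1, 2, or 4 of each group or in either sex alone. Igfbp2, a binding protein that circulates without the acid-labile subunit (chromosome 1, 72824480 to 72852474), was the only one of the 10 to pass between genotypes on NC. It ran from 350.0 to 965 CPM (median 576) in Hep-Bmal1WT and from 259.9 to 691 (median 454) in Hep-Bmal1KO livers on NC, a log2 difference of -0.38 (SE 0.09; edgeR, adjusted p = 0.0048; -0.44 without the 7 libraries). It did not pass in females alone (-0.33, edgeR adjusted p = 0.10) or without replicate 1 of each group (-0.33, edgeR adjusted p = 0.066). On cdHFD the medians were 544 (353 to 777) and 572 (303 to 798). With diet it changed by -0.13 (SE 0.09), which did not pass, in Hep-Bmal1WT livers and rose by 0.31 (SE 0.08) in Hep-Bmal1KO livers, where it did not pass in females alone (0.17) or without replicate 2 of each group (0.21). The difference of 0.45 (SE 0.12) passed (edgeR, adjusted p = 0.021; 0.51 without the 7 libraries), though not without replicate 1, 2, or 3 of each group or in females alone.

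Between genotypes on NC, 0 of the 10 genes were higher and 1 lower in Hep-Bmal1KO livers, where 7.0% and 5.61% of all genes passed in these directions. On cdHFD 1 was higher and 2 lower, where 4.62% and 4.99% of all genes passed. On that diet 4 of 8 stellate markers, 2 of 4 cholangiocyte markers (Epcam 1.15 and Sox9 0.68, log2), and 1 of 5 leukocyte markers were also higher in Hep-Bmal1KO livers, and 2 of 6 hepatocyte markers (Alb -0.28 and Hnf4a -0.25) and 1 of 7 macrophage markers were lower. On NC 2 of 6 hepatocyte markers were lower and 1 of 4 cholangiocyte markers was higher, and the part of these in the genotype differences was not tested. Genotype by diet passed for 2 of 10 genes, Igfbp2 and Stat5b, and for 3.04% of all genes. Median log2 differences of the 10 genes were -0.07 on NC and -0.04 on cdHFD, and those of all genes -0.01 and 0.01.

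Sex was the other axis along which these genes differed. Over all 96 libraries 4 of the 10 were lower in males and 0 higher, where 8.99% of all genes were lower and 8.24% higher. Igfals was lower in males by a log2 value of -0.67 (SE 0.07), Igfbp3 by -0.54 (SE 0.08), Socs2 by -0.58 (SE 0.15), and Stat5b by -0.15 (SE 0.05). Socs2 did not pass without replicate 1 of each group, and Stat5b did not without replicate 1, 2, or 3. Also lower in males were 5 of 6 endothelial, 4 of 8 stellate, 2 of 5 leukocyte, and 1 of 7 macrophage markers, and of 6 hepatocyte markers 2 were lower and 1 higher. Their part in the sex differences was not tested. In Hep-Bmal1WT livers on NC Igfals ran from 66.3 to 117 CPM (median 87.5) in males and from 119.5 to 246 (median 154) in females, without overlap. In Hep-Bmal1KO livers on NC it ran from 65.6 to 114 (median 85.7) in males and from 108 to 192 (median 138) in females. Sex by genotype passed for 0 of 10 genes and for 0.109% of all genes by edgeR's test, and also for 0 of 10 by DESeq2, with 1 of 10, Socs2, at an unadjusted p under 0.05.

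Sex differences of 2 genes depended on diet, Igf1 and Igfbp1, where 8.06% of all genes passed this test. Igf1 was lower in males than in females on NC, with medians of 1014 (845 to 1300) and 1353 (1140 to 1631) CPM in Hep-Bmal1WT livers, and on cdHFD the medians were 481 (333 to 643) and 415 (332 to 628). In Hep-Bmal1KO livers they were 1015 (929.7 to 1336) and 1184 (856 to 1413) on NC and 419 (344 to 694) and 423 (305 to 624) on cdHFD. The log2 difference between males and females was thus higher on cdHFD by 0.36 (SE 0.08; edgeR, adjusted p = 0.0019). Igfbp1 in Hep-Bmal1WT livers had medians of 24.3 (7.47 to 70.9) CPM in males and 67.8 (7.98 to 318) in females on NC, and of 295 (89.7 to 1032) and 165 (61.8 to 327) on cdHFD. Its change in the sex difference was 1.59 (SE 0.40; edgeR, adjusted p = 0.0045), and it was 1.14 and did not pass without replicate 4 of each group (edgeR, adjusted p = 0.21), nor did it pass without replicate 1 (edgeR, adjusted p = 0.053). Among the markers, 6 of 7 of the macrophage list and 3 of 8 of the stellate list also passed the sex by diet test, all with positive values, and their part in these results was not tested.

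Tested within each diet, a split added after the data had been seen, 8 of the 10 genes differed between the sexes on NC and 2 on cdHFD. On NC Ghr was higher in males by 0.22 (SE 0.05), and 7 genes were lower, from -0.22 for Stat5b to -1.04 for Igfbp1. On cdHFD Igfals (-0.56, SE 0.11) and Igfbp3 (-0.52, SE 0.08) remained lower in males, and both had been lower on NC (-0.77 and -0.56). Of all genes, 1343 were higher and 1551 lower in males on NC, and 365 were higher and 531 lower on cdHFD.

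Most listed liver genes whose sex bias is known to follow the pattern of growth hormone secretion had smaller sex differences on cdHFD. Slco1a1 did not, with a log2 difference of males against females of 2.33 on NC and 2.62 on cdHFD. All 12 genes of a male-biased list (Mup20, Cyp2d9, and others) were higher in males on NC, with a median log2 difference of 4.52, and 10 of 12 were on cdHFD, with a median of 1.3. All 13 measured genes of a female-biased list were lower in males on NC, with a median of -6.13, and 11 were on cdHFD, with -2.01. Sex by diet passed for 10 of the 12 and for 11 of the 13, where 8.06% of all genes passed. Cyp4a12a, a male-biased fatty acid hydroxylase, had a median of 367 CPM (121 to 480) in Hep-Bmal1WT males and 1.51 (0.525 to 5.94) in females on NC, and 6.53 (3.96 to 19.4) and 1.08 (0.129 to 1.92) on cdHFD. A1bg, which is female-biased, had 1.24 (0.629 to 24.7) in males and 226 (23 to 1811) in females on NC, and 1.04 (0.259 to 8.18) and 7.34 (2.03 to 14.7) on cdHFD. In both cases the sex with the high level on NC lay closer to the other sex on cdHFD, and the ranges of males and females on cdHFD did not overlap for Cyp4a12a. With diet, 12 of 12 male-biased genes fell in both genotypes, with medians of -3.61 in Hep-Bmal1WT and -5.13 in Hep-Bmal1KO livers, among them Slco1a1 (-4.69 and -5.78). Of all genes 27.0% fell in Hep-Bmal1WT and 29.6% in Hep-Bmal1KO livers. Of the 13 female-biased genes 11 fell in Hep-Bmal1WT and 8 in Hep-Bmal1KO livers, among them Sult3a1 (-7.81 and -7.19). In females alone 13 and 8 fell, whereas in males alone 2 rose and 1 fell in Hep-Bmal1WT livers (median 0.03) and 6 rose and 1 fell in Hep-Bmal1KO livers (median 0.32). Without the 7 libraries 6 fell and 1 rose in Hep-Bmal1KO livers, with a median of -0.71 in place of -1.53. Of the male-biased genes, 7 fell and 2 rose in Hep-Bmal1WT females alone, and 9 fell and 1 rose in Hep-Bmal1KO females alone. Of all 15548 genes, 2961 fell and 3593 rose in Hep-Bmal1WT females alone, and 3364 fell and 4175 rose in Hep-Bmal1KO females alone. In males alone 3141 fell and 3919 rose in Hep-Bmal1WT livers, and 3785 fell and 4382 rose in Hep-Bmal1KO livers. Members of the Mup, Cyp2b, Cyp2d, Cyp3a, Cyp4a, Ugt2b, and Serpina1 families have near-identical copies between which reads can be split, so single genes of these families are uncertain.

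**Figure D3:**
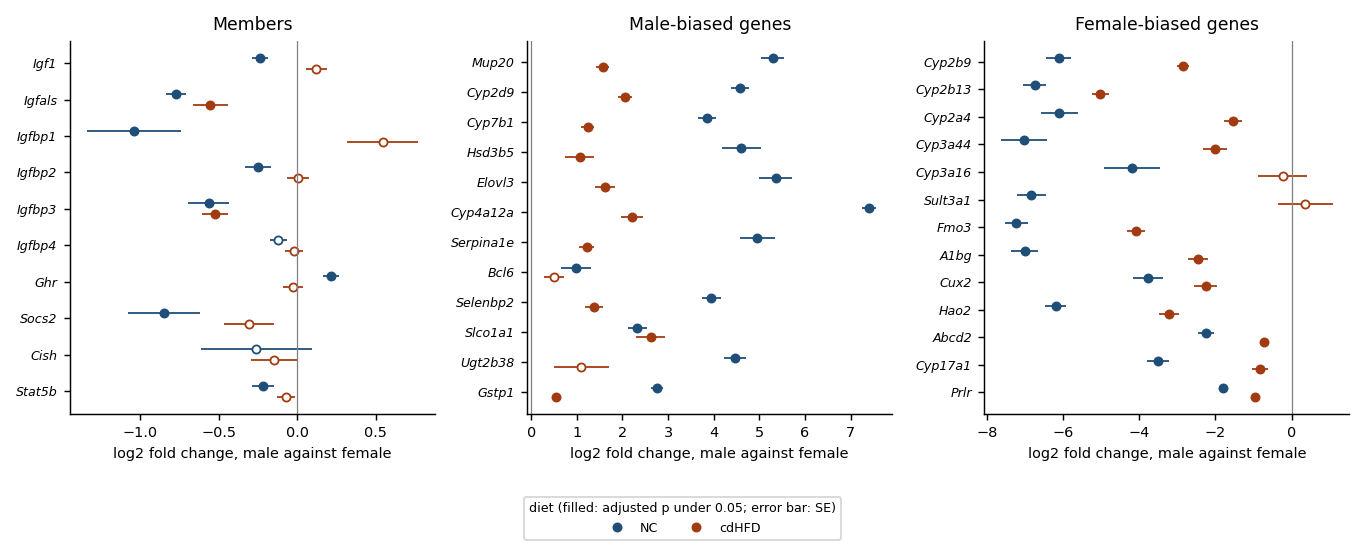
Log2 fold change and SE of males against females (x axis) within NC and within cdHFD for the 10 genes of the axis, the 12 male-biased genes, and the 13 female-biased genes (y axes), with filled points where the adjusted p was under 0.05. On cdHFD most points of both sex-biased lists lie nearer 0 than on NC, with medians of 1.3 and -2.01 against 4.52 and -6.13.

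Between genotypes, on NC 0 of 12 male-biased genes and 5 of 13 female-biased genes passed, all 5 lower in Hep-Bmal1KO livers, led by Cyp3a44 (-3.77, SE 0.84), and 8 of 13 passed without the 7 libraries, where 7.0% of all genes were higher and 5.61% lower with every library kept. Without the 7 libraries Cyp3a44 was at -5.68 (edgeR, adjusted p = 3.0e-06), and of all 15548 genes 1439 were higher and 1217 lower. Within the sexes, 3 male-biased genes were higher and 3 lower in Hep-Bmal1KO males, and 2 were higher and 1 lower in females. Of the female-biased genes 2 were lower and 1 higher in males, and 8 were lower and 1 higher in females. Of all 15548 genes, 952 were higher and 807 lower in males alone, and 354 were higher and 224 lower in females alone. On cdHFD 4 of the 12 male-biased genes were lower in Hep-Bmal1KO livers, among them Cyp4a12a (-1.34, SE 0.36) and Mup20 (-0.94, SE 0.27), and 8 of the 12 were without the 7 libraries (Cyp4a12a -1.75 and Mup20 -1.08). Of all genes 4.62% were higher and 4.99% lower with every library kept, and 1019 were higher and 1005 lower without the 7. Of the female-biased genes 2 were lower and 1 higher on cdHFD. Leaving out the 7 libraries also unbalanced the sexes between genotypes, and these fits had no term for sex. On NC the Hep-Bmal1KO libraries left out were all female, and on cdHFD the Hep-Bmal1KO library left out was male. Those left out of Hep-Bmal1WT were of both sexes on each diet. The part of this imbalance in the counts without the 7 libraries was not tested.

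Other genes of the pathway were counted over a list of 24, of which 20 passed the filter on low counts and Gh, Igf2, Pappa, and Pappa2 did not. With diet 6 rose and 3 fell in Hep-Bmal1WT livers, and 8 rose and 3 fell in Hep-Bmal1KO livers, with medians of 0.31 and 0.25. Of all genes 28.7% rose and 27.0% fell in Hep-Bmal1WT livers, and 32.4% and 29.6% in Hep-Bmal1KO livers. Sirpa, a membrane glycoprotein at which growth hormone signalling is damped and which is abundant on macrophages, rose most clearly, from a median of 19.6 (12.9 to 33.8) to 102 (73.9 to 148) CPM in Hep-Bmal1WT livers and from 20.6 (11.7 to 32.7) to 122 (83.3 to 184) in Hep-Bmal1KO livers. Its ranges on NC and cdHFD did not overlap. Igfbp7 (0.87, SE 0.07, and 1.23, SE 0.08) rose in both genotypes, as did the tyrosine phosphatase gene Ptpn1 (0.49, SE 0.06, and 0.64, SE 0.06) and the IGF2 receptor gene Igf2r (0.65, SE 0.10, and 0.92, SE 0.08). The insulin receptor gene Insr fell in both (-0.57, SE 0.06, and -0.58, SE 0.08), and so did Stat3 (-0.22 and -0.24). Jak2, the kinase on the growth hormone receptor, was named for its role and not by its p. It had log2 changes of 0.26 in both genotypes, which passed in Hep-Bmal1KO livers (edgeR, adjusted p = 0.031) and not in Hep-Bmal1WT livers (edgeR, adjusted p = 0.055).

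Between genotypes on NC, the insulin receptor substrate gene Irs2 was 0.63 (SE 0.21) and Irs1 0.30 (SE 0.09) log2 units higher in Hep-Bmal1KO livers, and the other 18 did not pass, where 7.0% of all genes were higher. In females alone 0 of the 20 passed by edgeR's test, and in males alone 2 did. Of all 15548 genes, 578 passed in females alone and 1759 in males alone. Irs2 had medians of 10.7 (2.57 to 29.7) and 15.6 (7.06 to 34) CPM, with wide overlap. On cdHFD Irs2 was again higher (0.51, SE 0.15), as were Igfbp7 (0.28, SE 0.07), Igf2r (0.28, SE 0.08), and 2 others, which makes 5 of 20 higher and 1 lower where 4.62% of all genes were higher and 4.99% lower. The genotype by diet test passed for Irs1 (-0.57, SE 0.14) and Igfbp7 (0.37, SE 0.10). Without the 7 libraries Irs2 was at 0.74 and Irs1 at 0.40 on NC, and Insr passed as well (-0.19). On cdHFD Irs2 was then at 0.61, Igfbp7 at 0.33, and Igf2r at 0.36, and the genotype by diet values were -0.64 for Irs1 and 0.42 for Igfbp7, all of which passed.

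Over the 4 combinations of genotype and diet, 7 of the 10 genes were called rhythmic at least once. Rhythmicity was judged over the 24 libraries of each genotype and diet, and required an unadjusted p under 0.01 in at least 1 of 3 tests for a 24-hour wave, which were a cosinor F test, a JTK-type rank test, and edgeR's test on a sinusoid. This held for 5 of 10 genes in Hep-Bmal1WT livers on NC (Igfbp1, Igfbp2, Igfbp3, Igfbp4, and Stat5b) and for 1 in Hep-Bmal1KO livers on NC (Igfbp1), where 22.5% and 11.1% of all genes were called. On cdHFD 2 were called in Hep-Bmal1WT livers (Socs2 and Stat5b) and 2 in Hep-Bmal1KO livers (Socs2 and Cish), against 18.8% and 10.3% of all genes. Igf1, Igfals, and Ghr were called in no group. Only Igfbp4 and Igfbp2 on NC and Socs2 and Stat5b on cdHFD, all in Hep-Bmal1WT livers, passed in the cosinor F test, and the other calls rested on edgeR's test alone.

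Igfbp4 had the clearest rhythm on NC, with an amplitude of 0.34 (SE 0.06, log2 scale) and a peak at 17.3 h (SE 0.67) in Hep-Bmal1WT livers. The 4 livers at ZT 2 had 1263, 1209, 1070.4, and 1596 CPM, and the 4 at ZT 14 had 1631, 1877, 2109, and 2178. All values at ZT 14 were above those at ZT 2. In Hep-Bmal1KO livers the amplitude was 0.15 (SE 0.06), a difference of -0.19 (SE 0.08; CircaCompare model over 48 libraries, unadjusted p = 0.028), which was -0.13 without the 7 libraries and -0.13 in females alone, and did not pass there or without replicate 2 or 3 of each group. On cdHFD the amplitude in Hep-Bmal1WT livers was 0.08 (SE 0.06), lower than on NC by a value of -0.25 (SE 0.08; CircaCompare model, unadjusted p = 0.0039). That difference was -0.09 in females alone and -0.15 without replicate 2 of each group, and neither passed. Igfbp2 also had a lower amplitude on cdHFD in Hep-Bmal1WT livers (-0.25, SE 0.12; unadjusted p = 0.045 in the same model, and 0.063 without the 7 libraries), and it did not pass in females alone (-0.12) or without any 1 of the 4 replicates. Amplitude passed an unadjusted p under 0.05 for 1 of 10 genes by genotype on NC (4.12% of all genes), 0 on cdHFD (2.93%), 2 by diet in Hep-Bmal1WT livers (7.92%), and 0 in Hep-Bmal1KO livers (4.25%), and none of the 10 passed in this model after adjustment over all genes. In edgeR's test of the cosine and sine terms together, which responds to amplitude and phase, 3 of the 10 differed by diet in Hep-Bmal1WT livers (edgeR, adjusted p = 0.0040 for Stat5b, 0.013 for Igfbp1, and 0.020 for Igfbp4) and 0 in each of the other comparisons.

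The phase of Stat5b differed between the diets in Hep-Bmal1WT livers, the only one of the 10 genes that was rhythmic on both. On NC the 4 livers at ZT 6 had 41.3, 64.1, 47.3, and 41.2 CPM and those at ZT 10 had 20.7, 22.0, 28.8, and 28.6. On cdHFD those at ZT 6 had 24.7, 22.9, 25.7, and 17.9 and those at ZT 22 had 39.8, 39.7, 36.2, and 34.9. The highest values were thus in the light phase at ZT 6 on NC, where the library at 64.1 is 1 of the 7 named above, and late in the dark phase on cdHFD. The fitted peak was at 1.84 h (SE 1.17) on NC and 18.8 h (SE 0.70) on cdHFD, a difference of -7.06 h (SE 1.33; CircaCompare model, unadjusted p = 4.1e-06). It was -6.43 h without the 7 libraries. The call of rhythm on NC, and with it the comparison, was lost when replicate 1, 2, or 3 of each group was left out, and also in males alone and in females alone. Phase differed by this rule in 45.6% of the 1227 genes compared. In Hep-Bmal1KO livers, where Stat5b was not called rhythmic on either diet, the fitted peaks were 3.84 h and 20.9 h.

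Socs2 on cdHFD peaked at 2.80 h (SE 0.97) with an amplitude of 0.71 (SE 0.18) in Hep-Bmal1WT livers and at 3.24 h (SE 1.16) with 0.55 (SE 0.17) in Hep-Bmal1KO livers. At ZT 2 the Hep-Bmal1WT livers had 84.1 and 63 CPM in the 2 females and 26.6 and 10.6 in the 2 males, and at ZT 14 they had 9.48, 8.99, 12.8, and 8.72. The range at ZT 2 thus spanned nearly the whole range of the group, with both females above both males. The phase of Socs2 did not differ between genotypes on cdHFD (0.44 h, SE 1.53), a comparison that 14.8% of 829 genes passed, and that of Igfbp1 did not on NC (-0.13 h, SE 2.50), where 13.3% of 955 genes passed. On NC Socs2 had an amplitude of 0.62 (SE 0.28) in Hep-Bmal1WT and 0.63 (SE 0.29) in Hep-Bmal1KO livers, and neither passed the rule.

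**Figure D4:**
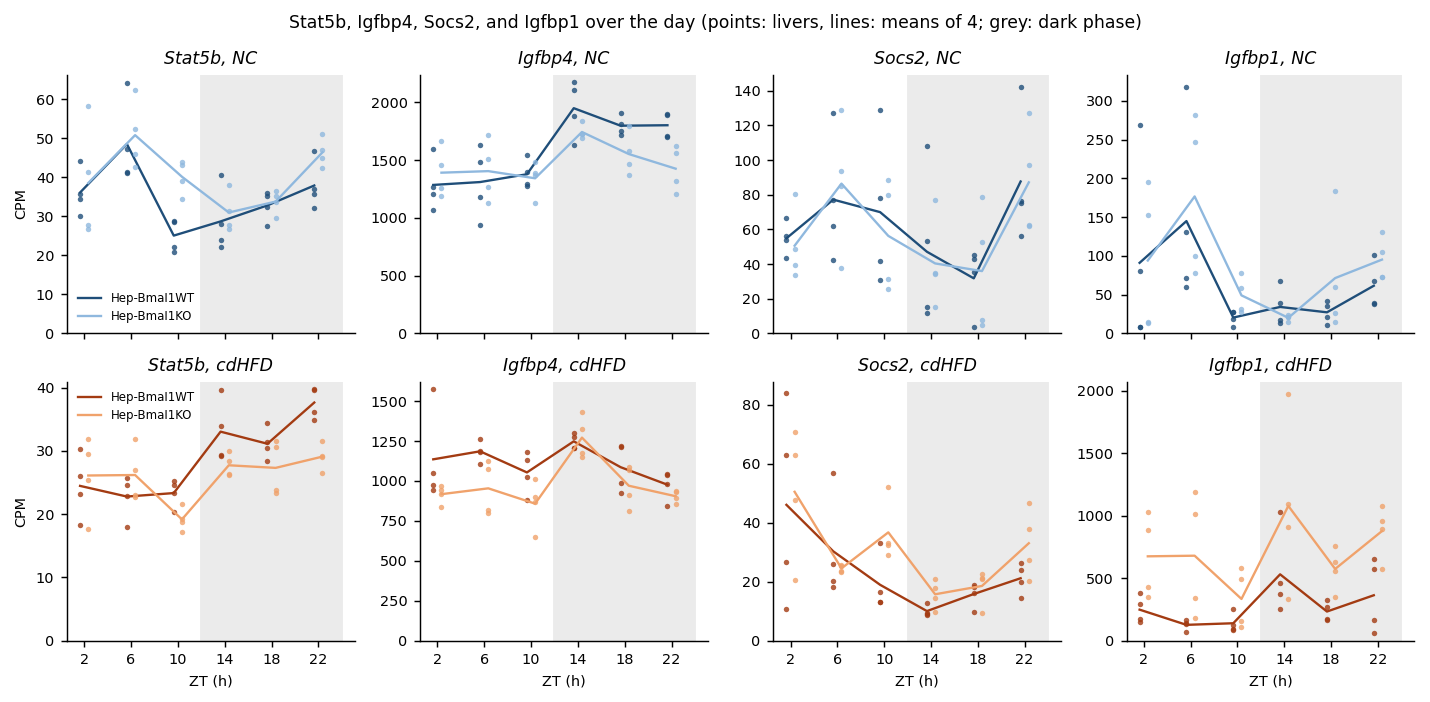
CPM (y axis, from 0) of Stat5b, Igfbp4, Socs2, and Igfbp1 over ZT in hours (x axis) on NC (top) and cdHFD (bottom), with a point for each liver, lines through the means of 4 livers, and grey for the dark phase. Stat5b in Hep-Bmal1WT livers is highest at ZT 6 on NC, with a mean of 48.5 CPM, and at ZT 22 on cdHFD, with 37.6.

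The spread between mice of the same genotype, diet, ZT, and sex differed widely among the genes. The median coefficient of variation on NC was 4.17% for Ghr, 6.73% for Igfbp4, 8.03% for Igf1, 9.58% for Stat5b, and 9.87% for Igfals. It was 27.3% for Socs2, 34.4% for Igfbp1, and 40.3% for Cish. On cdHFD it was 11.9% for Ghr and 25.3% for Cish. Igfbp1 at ZT 2 on NC shows how far apart mice could lie. The Hep-Bmal1WT livers had 7.47 and 7.71 CPM in the males and 268 and 80.1 in the females, and the Hep-Bmal1KO livers had 13.2 and 14.4 in the males and 196 and 152 in the females.

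Some genes varied together between such mice. Each library's log2 CPM was taken as the deviation from the mean of its genotype, diet, ZT, and sex (48 cells, 46 of them with 2 mice), and all 45 pairs of the 10 genes were correlated. In 3 pairs both coefficients passed an adjusted p under 0.05 over the 45 pairs, by 100000 permutations within cells. For Igfals and Igfbp4 Pearson's r was 0.59 (permutation p = 0.00057) and Spearman's rho 0.53 (permutation p = 0.00082), with r = 0.53 on NC and 0.65 on cdHFD. For the feedback genes Socs2 and Cish r was 0.58 (permutation p = 0.00078) and rho 0.53 (permutation p = 0.0013), with r = 0.59 on NC and 0.55 on cdHFD. For Igf1 and Igfals r was 0.56 (permutation p = 0.0011) and rho 0.50 (permutation p = 0.00099), with r = 0.50 on NC and 0.59 on cdHFD, and 0.77 in Hep-Bmal1WT and 0.30 in Hep-Bmal1KO livers. The adjusted permutation p was 0.016 for each r and 0.0195 for each rho, and r was 0.55, 0.61, and 0.52 without the 2 libraries farthest from the median of the former gene. Where a cell has 2 mice their deviations mirror each other, so the cells and not the libraries are the independent points. Both genes of a pair are read from the same library, and the part of library quality in these relations was not tested. The 7 libraries nearer the other genotype were kept here, and their part in r, also within each genotype, was not tested.

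**Figure D5:**
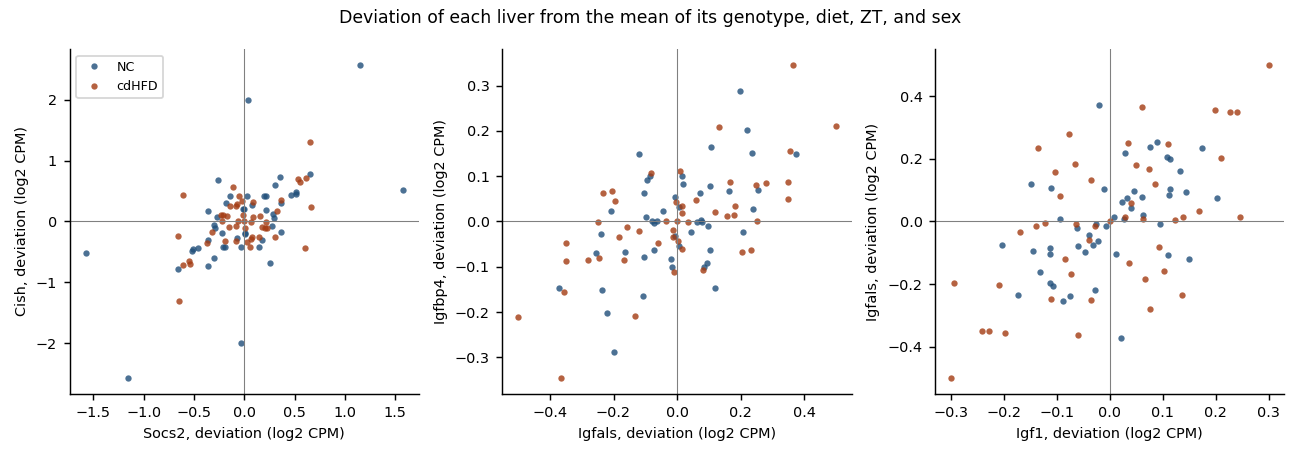
Deviation of each liver (log2 CPM) from the mean of its genotype, diet, ZT, and sex for Socs2 and Cish, Igfals and Igfbp4, and Igf1 and Igfals, with the former gene of each pair on the x axis and points coloured by diet. Points run from lower left to upper right in each panel, with r = 0.58, 0.59, and 0.56.

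Over the means of the 24 groups of genotype, diet, and ZT, the gene whose pattern was most like that of each of the 10, out of 8999 genes, was named with its r as a description. These were Slco1a1 for Ghr (0.991), Shmt1 for Igfals (0.991), Aldh8a1 for Igf1 (0.980), and Akr1c14 for Igfbp4 (0.950). They were Igsf8 for Igfbp3 (0.919), Scamp2 for Igfbp1 (0.912), Lsm10 for Stat5b (0.883), and Mir22hg for Socs2 (0.875). Igfbp2 (0.750, Sun2) and Cish (0.711, Anp32a) had no gene as close. The 24 points share the difference between the diets and the libraries they were read from.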

How the data were processed

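Liver RNA of 96 mice was measured by BRB-seq, 1 mouse per library. The authors made the deposited table of read counts per gene with the BRB-seq tools, STAR on mm10, and HTSeq. The labels also name FeatureCounts, and whether molecular identifiers were used is not given in the sources used here. Counts of 55487 genes were used as deposited, and between 22.6% and 39.9% of reads per library (median 26.1%) lay in entries that name no gene and were left out. Groups followed the labels for genotype, diet, ZT, and sex.

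The 15548 genes that reached 100 counts over all libraries were tested with the quasi-likelihood test of edgeR 4.0.16 in R 4.3.3 after TMM scaling, with Benjamini-Hochberg adjustment and a threshold of 0.05. The SE of a log2 change was taken from the change and its F value. Rhythms were fitted by a cosinor with a period of 24 hours on variance-stabilised values (DESeq2 1.42.0), a JTK-type rank test, and edgeR, and were called at an unadjusted p under 0.01. Amplitude and phase were compared by least squares after CircaCompare at an unadjusted p under 0.05, and phase only where a gene was rhythmic in both groups. Alternatives were DESeq2, its size factors, other filters on low counts, sex as a covariate, each sex alone, each replicate left out, and the 7 libraries nearer the other genotype left out. Each library is a separate mouse.

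The 10 genes and all gene lists were chosen with earlier results of these data known. Of the pathway list, up to 3 genes per direction and comparison with the smallest p were named, and of each sex-biased list up to 2. Some results of the pathway list are not reported here. Gene positions came from a RefSeq table of GRCm38.p6. In data simulated for genotype on NC with 15544 genes, 94% of 200 changed genes were found, and 5.05% of 198 calls were false. The share found among differences as small as that of Igfbp2 on NC (log2 -0.38) was not tested.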

Additional observations from a re-analysis of the deposited data

Results flagged for a closer look

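Of 240 groups of 4 livers (10 genes, 24 groups), 5 held 1 liver far from the other three, or 2.08%, where chance gives about 1 in 20. Igfbp2 in replicate 2 of Hep-Bmal1KO livers on cdHFD at ZT 14 had 675.5 CPM, with 491 to 515 in the others. Socs2 in replicate 2 of Hep-Bmal1KO livers on cdHFD at ZT 18 had 9.49 CPM, with 20.9 to 22.5 in the others. Cish had 18 CPM in replicate 1 of Hep-Bmal1WT livers on cdHFD at ZT 14, with 9.68 to 11.1 in the others, and this is 1 of the 7 libraries nearer the other genotype. Cish also had 16.9 CPM in replicate 3 of Hep-Bmal1KO livers on cdHFD at ZT 6, with 9.29 to 10.1 in the others, and 34.2 CPM in replicate 1 at ZT 22, with 29.4 to 30.2 in the others.

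Effects of 4 genes differed between groups by the test of the difference itself. The genotype difference depended on diet for Igfbp2 (log2 0.45) and Stat5b (-0.35), and the sex difference depended on diet for Igf1 (0.36) and Igfbp1 (1.59).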

How the results depend on the processing

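Values here are counts of the 10 genes that passed. For diet, 9 genes passed in Hep-Bmal1WT livers and 10 in Hep-Bmal1KO livers, and with each replicate left out the counts were 8 to 9 and 9 to 10. Genotype on NC (1 gene) gave 2 with sex as a covariate, 2 without the 7 libraries, 2 in males alone, 0 in females alone, and 0 to 1 with a replicate left out. Genotype on cdHFD (3) gave 4 with every gene with 1 count tested, with sex as a covariate, without the 7 libraries, and in males alone, 1 in females alone, and 1 to 3 with a replicate left out. Genotype by diet (2) gave 3 with DESeq2, with sex as a covariate, and without the 7 libraries, 1 with DESeq2 size factors, 1 with every gene with 1 count tested, 1 in males alone, 0 in females alone, and 0 to 2 with a replicate left out. Sex (4) gave 7 with every gene with 1 count tested, 8 within NC, 2 within cdHFD, and 2 to 4 with a replicate left out. With every gene with 1 count tested, sex by diet (2) gave 4 and sex by genotype (0) gave 2, and sex by diet gave 1 to 2 with a replicate left out. The calls gained with every gene with 1 count tested had nearly the same log2 values and smaller SEs. Igfbp1 by sex was at -0.22 with an SE of 0.05, where the main fit had -0.22 and 0.22. The part of the added low-count genes in these SEs was not tested.

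Rhythm in Hep-Bmal1WT livers on NC (5) gave 2 by the cosinor F test alone, 1 by the rank test alone, 2 in females alone, and 2 to 4 with a replicate left out, and on cdHFD (2) 2 to 3 with a replicate left out. Rhythm in Hep-Bmal1KO livers on NC (1) gave 0 by the cosinor F test alone, by the rank test alone, at an adjusted threshold, without the 7 libraries, and in males alone, 2 in females alone, and 0 to 1 with a replicate left out. In Hep-Bmal1KO livers on cdHFD (2) it gave 0 by the cosinor F test alone, 0 by the rank test alone, 1 at an adjusted threshold, 1 in males alone, 4 in females alone, and 1 to 2 with a replicate left out. Amplitude by genotype on NC (1) gave 0 without the 7 libraries, 2 in males alone, 0 in females alone, 0 at an adjusted threshold, 0 by edgeR's interaction test, and 0 to 1 with a replicate left out. Amplitude by genotype on cdHFD (0) and by diet in Hep-Bmal1KO livers (0) each gave 1 in males alone. Amplitude by diet in Hep-Bmal1WT livers (2) gave 1 without the 7 libraries, 1 in females alone, 0 at an adjusted threshold, 3 by edgeR's interaction test, and 0 to 1 with a replicate left out. Phase by diet in Hep-Bmal1WT livers (1) gave 0 in females alone and 0 to 1 with a replicate left out. In males alone the amplitude difference of Igfals turned to 0.38 by genotype on cdHFD and to 0.36 by diet in Hep-Bmal1KO livers.

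Of the values of single genes under the alternatives, 1515 kept their sign and their side of the threshold, 94 changed sign where neither value passed, 95 lost a call, 38 gained one, and 2 passed with the opposite sign. The cause was not tested. Over all genes tested, genotype on NC gave 1960 calls (578 to 2656), genotype on cdHFD 1494 (522 to 2024), genotype by diet 473 (103 to 919), sex 2679 (896 to 2920), sex by diet 1253 (511 to 1492), and sex by genotype 17 (0 to 325). No paired analysis was possible because the replicate numbers are names in accession order and pair no mice.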
